A study of Mus musculus with 50 samples.

Results

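The sarcomeric myosin heavy chain genes of skeletal muscle were followed across age in the mouse gastrocnemius, a calf muscle of mostly fast fibres. The members were chosen by name, as the rows with the symbols Myh1, Myh2, Myh3, Myh4, Myh7, Myh7b and Myh8, which is 7 genes of interest in a table of 23880 genes. Of these, 6 were analysed and 5 passed the filter on low counts, at least 1 CPM (a count scaled to the library total) in at least 8 mice. Myh7b was below that filter, with at least 1 CPM in 3 mice, and Myh3 was not analysed here. RNA was sequenced from 50 male wild-type C57BL/6JRj mice, 1 library per mouse. The groups of 8, 18, 22 and 24 months held 8 mice each, and those of 26 and 28 months held 9 mice each. None of the groups carried a transgene or received a drug. All mice came from 1 breeder's ageing colony and were fed a defined diet, which the mice of 22 to 28 months had received from the age of 18 to 19 months and the mice of 8 and 18 months for at least 2 months. The comparison of 28 with 22 months therefore lies within 1 feeding regime, and that of 28 with 8 months does not. Libraries held between 13607229 and 21267375 counts, and no pair of libraries was identical.

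Myosin heavy chains are the motor proteins of the thick filament. Each has a head that binds actin and splits ATP and a long coiled-coil rod that packs into the filament, and the isoform in a fibre is the main determinant of how fast that fibre shortens. Adult mouse limb fibres are classed by their isoform: Myh4 encodes the IIb chain of the fastest fibres, Myh1 the IIx chain, Myh2 the IIa chain of fast oxidative fibres, and Myh7 the slow type I chain, which is also a heart myosin. Myh3 and Myh8 encode the embryonic and perinatal chains, which are made during development and again in regenerating fibres. Myh7b encodes a slow-tonic chain found in a few specialised muscles, whose RNA is also made elsewhere with little protein.

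On the mouse genome GRCm38 (GENCODE M21), Myh3 (chr11:67078300-67102291), Myh2 (chr11:67171027-67197517), Myh1 (chr11:67200052-67224575), Myh4 (chr11:67238029-67260446) and Myh8 (chr11:67277124-67308634) stand in a row on the plus strand of chromosome 11. Myh7 lies on the minus strand of chromosome 14 (chr14:54970684-54994626) and Myh7b on the plus strand of chromosome 2 (chr2:155611212-155634307). The translated proteins were closely alike within the chromosome 11 cluster. Myh1 shared 94.9% of aligned residues with Myh4 and 94.6% with Myh2, against 81.7% with Myh7.

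What was counted for each member differed. The ratio of count to TPM (the deposited level per transcript length, on a scale with the same total in each library) gives the length over which a gene was counted, and this recovered the annotated length within 5% for 287 of 292 genes with a single transcript. For Myh4 the length was 5912 bases and for Myh8 6149 bases, the lengths of their coding transcripts. Myh1 came to 5730 bases and Myh7 to 5618 bases. Both lie below their full coding transcripts of support level 1, which have 6012 and 6081 bases for Myh1 and 6135 and 6230 for Myh7. Both genes also have shorter models of support level 1 to 3, such as 1 of 631 bases for Myh1 and 1 of 3769 for Myh7. For Myh2 it was 1488 bases in every mouse, the length of 1 transcript with a retained intron (ENSMUST00000124337), which lies at the 5′ end of the gene and is the only Myh2 model with a transcript support level from 1 to 3. Of its 1488 bases, 434 lie in exons 1 to 4 of the 40 exons of the coding transcript and 1054 in its introns. For Myh7b the length was 671 bases, and its models of those support levels are 2 non-coding transcripts of 667 and 674 bases. The models of Myh3 all have support level 5. The levels of Myh2 and Myh7b therefore rest on a small piece of each gene, and they cannot be set against the other members as levels of full-length mRNA.

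**Figure D1:**
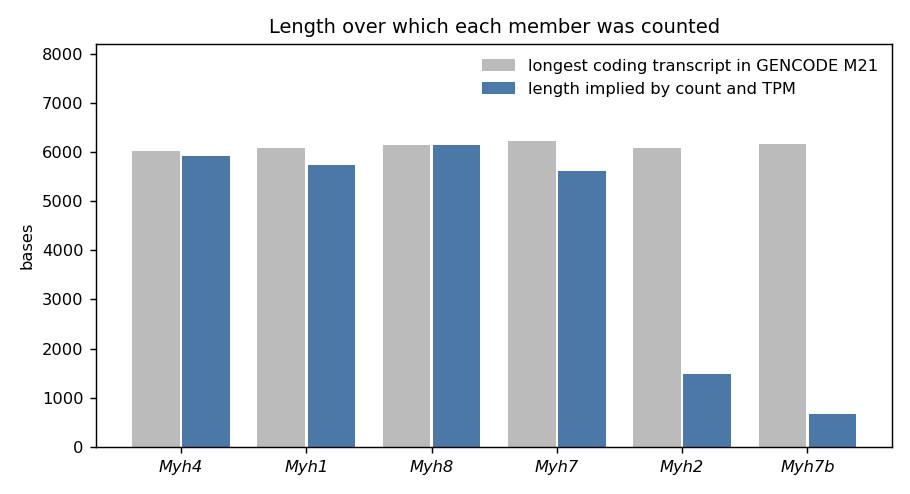
Length in bases (y axis) of the longest coding transcript of each member in GENCODE M21 (grey bars) and the length implied by its count and TPM (blue bars). Myh4, Myh1, Myh8 and Myh7 were counted over 5618 to 6149 bases, Myh2 over 1488 and Myh7b over 671.

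Reads cannot always be assigned to 1 member, because stretches of these genes are identical. The first set of sequences shows the window of 100 bases, about the length of 1 read, at which the fast genes are most alike, and the second the window at which they are least alike, among 1733 windows, 1 starting at each codon, aligned without gaps across the 7 genes. Exons are numbered in the longest coding transcript of each gene. All are coding sequence in the rod, written 5′ to 3′ on the coding strand, and capitals mark bases that differ from Myh4. In the first window, Myh4 (chr11:67252224-67252323, exon 23), Myh1 (chr11:67213605-67213704, exon 24), Myh2 (chr11:67188704-67188803, exon 24) and Myh8 (chr11:67297488-67297587, exon 24) are identical. Myh3 (chr11:67093179-67093278, exon 24) differs from them at 17 bases, Myh7 (chr14:54983277-54983376, exon 25) at 14 and Myh7b (chr2:155628535-155628634, exon 26) at 23.
Myh4, Myh1, Myh2 and Myh8: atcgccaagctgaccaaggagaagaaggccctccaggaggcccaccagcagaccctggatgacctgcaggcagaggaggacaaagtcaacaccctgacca
Myh3: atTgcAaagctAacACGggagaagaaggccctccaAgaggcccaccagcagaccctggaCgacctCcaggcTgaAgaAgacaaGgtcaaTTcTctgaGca
Myh7: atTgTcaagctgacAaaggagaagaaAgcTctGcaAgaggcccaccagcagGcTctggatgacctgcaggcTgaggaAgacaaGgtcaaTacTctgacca
Myh7b: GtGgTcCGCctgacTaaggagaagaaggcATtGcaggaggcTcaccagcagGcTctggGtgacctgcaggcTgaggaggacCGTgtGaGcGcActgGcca

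The second window spans an exon junction in each gene: Myh4 (chr11:67254084-67254514, exons 27 to 28), Myh1 (chr11:67215925-67217520, exons 28 to 29), Myh2 (chr11:67190391-67191404, exons 28 to 29), Myh8 (chr11:67299355-67299769, exons 28 to 29) and Myh7 (chr14:54978645-54978909, exons 29 to 30). Here Myh1 differs from Myh4 at 30 of 100 bases, Myh2 at 28, Myh8 at 26 and Myh7 at 29, so the genes can be told apart by their sequence here. Neither window lies in the transcript over which Myh2 was counted, so a read of Myh2 mRNA from either could not be counted as Myh2.
Myh4: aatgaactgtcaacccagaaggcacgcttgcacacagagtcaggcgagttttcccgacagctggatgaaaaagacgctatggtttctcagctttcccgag
Myh1: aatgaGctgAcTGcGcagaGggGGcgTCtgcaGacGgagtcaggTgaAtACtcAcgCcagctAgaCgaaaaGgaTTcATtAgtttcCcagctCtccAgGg
Myh2: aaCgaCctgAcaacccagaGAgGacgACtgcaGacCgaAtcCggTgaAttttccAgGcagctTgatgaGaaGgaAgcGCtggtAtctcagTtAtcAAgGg
Myh8: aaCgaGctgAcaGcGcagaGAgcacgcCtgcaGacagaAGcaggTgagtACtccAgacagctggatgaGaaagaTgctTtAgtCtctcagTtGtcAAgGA
Myh7: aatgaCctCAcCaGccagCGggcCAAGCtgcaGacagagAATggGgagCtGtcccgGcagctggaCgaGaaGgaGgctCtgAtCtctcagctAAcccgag

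Over all 1733 windows, the median number of bases that differed from Myh4 was 10 for Myh1, 11 for Myh2, 12 for Myh8, 19 for Myh3, 21 for Myh7 and 30 for Myh7b. Windows identical to Myh4 numbered 46 for Myh1, 25 for Myh2 and 30 for Myh8. Short words of 31 bases, the unit by which kallisto assigns reads, were shared with at least 1 other myosin gene at 41.4% of the coding positions of Myh1, 40.2% of Myh2, 34.4% of Myh8 and 31.4% of Myh4. The highest share between a pair of members was 29.3%, between Myh1 and Myh2. For Myh7 the share was 34.2%, nearly all of it with the heart gene Myh6 (34.0%), and for Myh7b it was 0.19%. The reads were paired, so a mate can place a read whose own sequence is shared. These shares are over full coding sequences. The transcript over which Myh2 was counted shares 92 of its 1458 words with other myosin genes, 6.31%, and those of Myh7b share 0. The division of reads among Myh1, Myh4 and Myh8 is therefore uncertain, while that between these genes and Myh7 is less so. The counted piece of Myh2 also shares few words, but reads of Myh2 mRNA from the other exons could be counted only for other genes. The full coding sequence of Myh2 shares 29.3% of its words with Myh1, 20.6% with Myh8 and 17.7% with Myh4. How many reads were counted in this way was not tested.

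**Figure D2:**
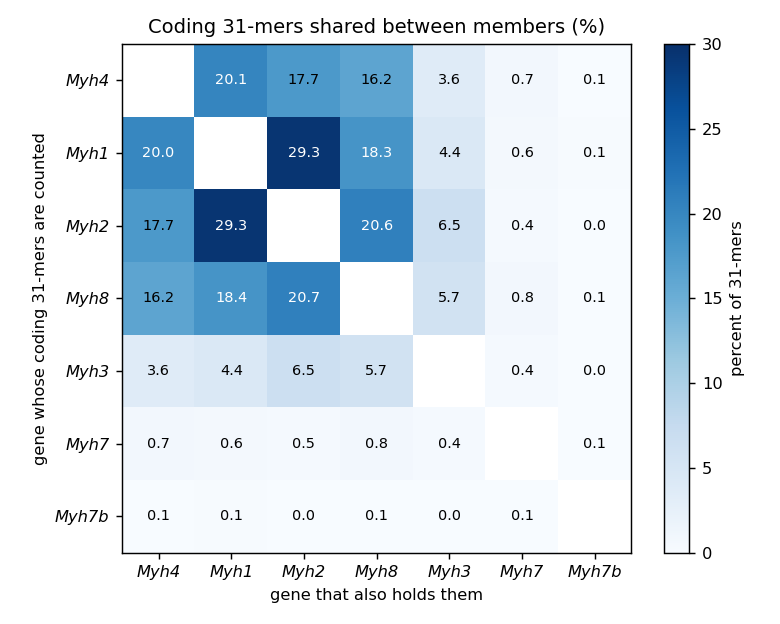
Percent of the coding 31-base words of the gene on the y axis that also occur in the coding sequence of the gene on the x axis. Myh1, Myh2, Myh4 and Myh8 share 16.2% to 29.3% with each other, and Myh7 and Myh7b share under 1% with any other member.

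The promoters of the adult fast genes and Myh8 are shown because these genes neighbour each other and 3 of them varied together between mice (RefSeq, GRCm38.p6, plus strand). The longest run present within 250 bases before the start of all 4 genes is the 14 bases in capitals, TTCTAATTATATCC, an AT-rich stretch that begins 54 to 160 bases before the start. The segments printed are Myh4 (chr11:67237614-67237707), Myh1 (chr11:67199902-67199995), Myh2 (chr11:67170862-67170955) and Myh8 (chr11:67277030-67277123). On either strand it occurred in 4 of 32851 upstream windows, 0.0122%, which are those of these 4 genes. It is not in the windows of Myh3, Myh7 and Myh7b. The run was picked as common to these promoters, so its rarity elsewhere is a description of 14 letters, and binding was not measured.
Myh4 promoter: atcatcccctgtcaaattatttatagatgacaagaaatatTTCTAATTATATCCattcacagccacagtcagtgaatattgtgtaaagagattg
Myh1 promoter: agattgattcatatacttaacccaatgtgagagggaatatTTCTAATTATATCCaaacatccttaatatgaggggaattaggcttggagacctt
Myh2 promoter: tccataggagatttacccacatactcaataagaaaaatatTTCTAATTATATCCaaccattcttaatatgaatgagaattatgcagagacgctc
Myh8 promoter: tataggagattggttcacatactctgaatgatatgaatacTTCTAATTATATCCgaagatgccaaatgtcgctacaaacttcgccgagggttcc

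Myh4 was by far the most abundant member. Its median level over the 50 mice was 18569 TPM, the rank of 12 among the 23880 genes, and its counts were 4.003% to 9.36% of a library. Myh1 followed at 1169 TPM, with a median ratio of Myh4 to Myh1 within a mouse of 16.4, and the ranges of the 2 genes did not overlap. The next members, Myh8 at 116 TPM and Myh7 at 111 TPM, overlapped in range. The value of Myh8 may include reads shared with the far more abundant Myh4 and reads of Myh2 mRNA from its uncounted exons. Their part was not tested, so 116 TPM cannot be read as the level of perinatal mRNA alone. Myh2 and Myh7b, with medians of 113 and 1.02 TPM over their partial transcripts, have no place in this order. Among the 4 members whose counted models include a full coding transcript, Myh4 made up a median of 93.1% of the summed TPM, Myh1 5.70%, Myh8 0.580% and Myh7 0.543%. The TPM of Myh1 and Myh7 also include their shorter models, so these are not shares of full-length mRNA alone. The 8 skeletal muscle identity genes, creatine kinase Ckm and skeletal actin Acta1 among them, summed to between 67657 and 81242 TPM at 8 months and between 55420 and 86177 TPM at 28 months.

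Myh1, the IIx chain, was the member that passed the test at the highest age. At 8 months it lay between 556 and 1611 TPM with a median of 1067. At 28 months it lay between 873 and 2615 TPM with a median of 1832. Of the 9 mice of 28 months, 6 were above every 8-month mouse and 8 were above the 8-month median, and the groups overlapped. The medians at 18, 22, 24 and 26 months were 929, 1079, 974 and 1218 TPM. All of these stayed within the range of the 8-month mice. Myh1 was 1.59-fold higher at 28 than at 8 months (log2 fold change 0.67, SE 0.21, edgeR FDR 0.00777). Within 1 feeding regime, it was 1.65-fold higher at 28 than at 22 months (log2 fold change 0.72, SE 0.21, edgeR FDR 0.00616). Both calls depended on single mice. Leaving out 1 mouse at a time, the first held in 7 of 17 fits and the second in 10 of 17. The log2 fold changes were 0.58 to 0.75 and 0.63 to 0.81. Without replicate 2 of 28 months, the library least like the others of its age, both calls were lost (edgeR FDR 0.015 and 0.0135). The call at 28 against 8 months was also lost with upper-quartile factors (edgeR FDR 0.0144), without the filter (0.011), with only the 2 ages in the fit (0.0134) and with a replicate block (0.01003), and that at 28 against 22 months with upper-quartile factors and the replicate block.

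Myh4, the IIb chain, differed less. It ranged from 10671 to 23622 TPM at 8 months (median 16553.5) and from 13427 to 29610 TPM at 28 months (median 19750.5). The groups overlapped, with 4 of 9 mice of 28 months above every 8-month mouse and 7 above the 8-month median. The log2 fold change was 0.28 (SE 0.15, edgeR FDR 0.107), which did not pass. The 28-month mouse with the lowest Myh4, replicate 2, was the library least like the others of its age. This mouse also had the highest Myh7 of its age, 349 TPM, and Myh1 at 2335 TPM. Without it the log2 fold change of Myh4 was 0.36 (edgeR FDR 0.0295), which also missed the threshold of 0.01.

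Myh2, the IIa chain, was read from its 5′ fragment only. It lay between 33.7 and 152 TPM at 8 months (median 106) and between 97.5 and 202 TPM at 28 months (median 139.9). Here 4 of 9 mice of 28 months were above every 8-month mouse, and 8 were above the 8-month median. The log2 fold change was 0.63 with an SE of 0.28, and the edgeR FDR of 0.0503 did not pass.

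Myh7, the slow chain, varied more between mice of the same age than nearly any other gene. It ran from 4.21 TPM in 1 mouse of 22 months to 380 TPM in 1 mouse of 24 months, and within 22 months the highest mouse was 38.8-fold above the lowest. The SD of its log2 CPM within age was 1.08, larger than that of 99.8% of the 12586 genes tested, for which the median SD was 0.24. The same SD was 0.62 for Myh2, 0.46 for Myh1, 0.36 for Myh8 and 0.31 for Myh4. Levels at 8 months lay between 17.7 and 130 TPM with a median of 82.6, and at 28 months between 69.8 and 349 TPM with a median of 206. The 28-month mice overlapped with those of 8 months, with 6 of 9 above every 8-month mouse and 8 above the 8-month median.

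Medians of Myh7 at 18, 22, 24 and 26 months were 51.1, 105, 108 and 125 TPM. It was 2.38-fold higher at 28 than at 8 months (log2 fold change 1.25, SE 0.45), the highest value among the members, but with an edgeR FDR of 0.0174 it missed the threshold. Against 22 months it was 2.10-fold higher at 28 months (edgeR FDR 0.0489), which also missed. The slope over all 6 ages did pass, at 0.07 log2 units per month (SE 0.02, edgeR FDR 0.00531). Leaving out 1 mouse at a time, this slope passed in 47 of 50 fits. The 3 mice whose removal raised the FDR above 0.01 were replicates 1 and 7 of 8 months and replicate 8 of 28 months, the highest of these FDRs being 0.0121. Among mice of 22 to 28 months alone the slope was 0.14 per month and did not pass (edgeR FDR 0.101).

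Myh8, the perinatal chain, ranged from 61.0 to 146 TPM at 8 months (median 115) and from 106 to 168 TPM at 28 months (median 143). The groups overlapped, and 4 of 9 mice of 28 months were above every 8-month mouse. The log2 fold change was 0.34 (SE 0.17, edgeR FDR 0.0798), which did not pass. The counts of Myh8 may include shared reads of Myh4 and Myh2. Myh7b had 0 to 34 counts per mouse, with no count in 3 mice. Its medians were 1.20 TPM at 8 months and 1.69 TPM at 28 months. Without the filter its log2 fold change at 28 against 8 months was 0.10 (SE 0.46, edgeR FDR 0.946).

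**Figure D3:**
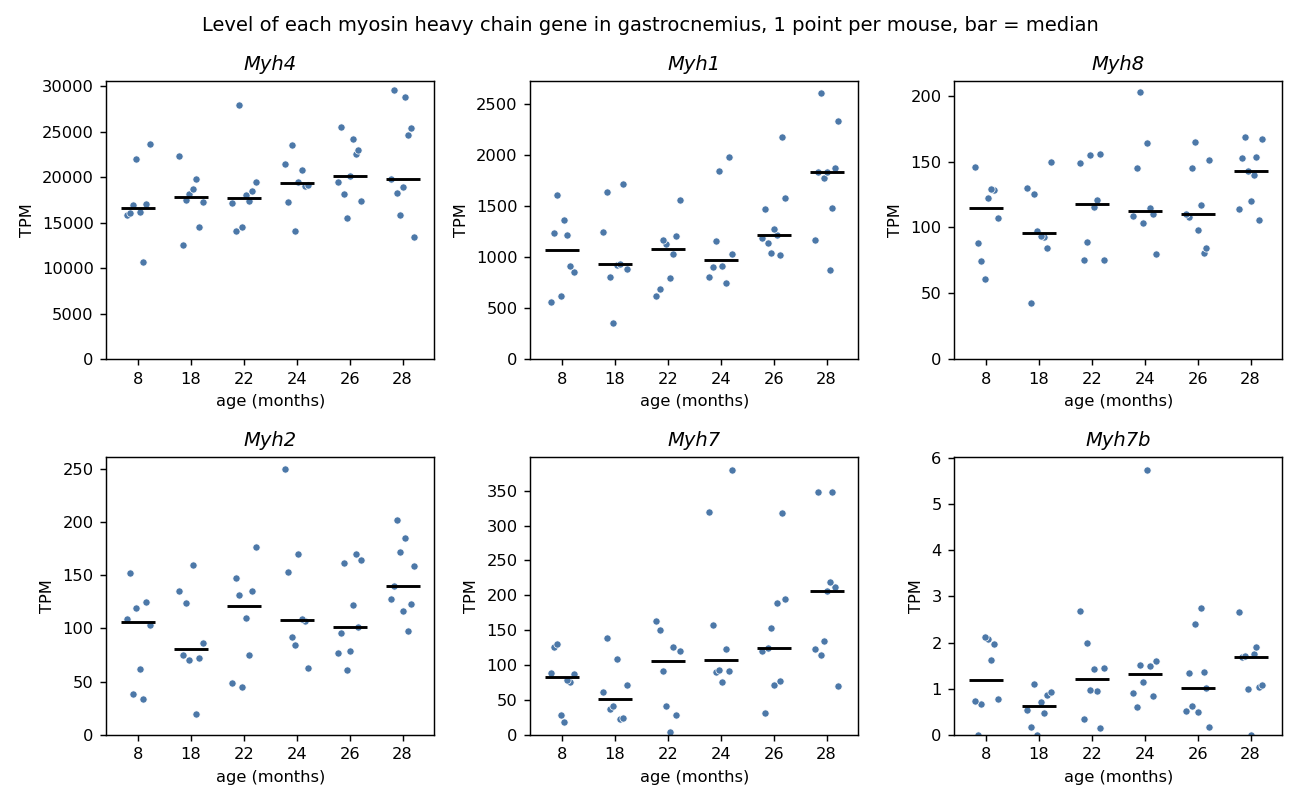
TPM (y axis, linear from 0) by age in months (x axis) for the 6 members analysed, with 1 point per mouse and a bar at the median of 8 or 9 mice. Every member but Myh4 has its highest median at 28 months, among them Myh1 and Myh7 at 1832 and 206 TPM, and every older group overlaps with the 8-month mice.

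Across the ages, the members moved little until 24 months. At 18 against 8 months 0 of the 5 tested members passed (edgeR, FDR below 0.01, as in all comparisons), with 0.0715% of the 12586 genes called. At 22 against 8 months 0 passed (background 0.0397%), at 24 against 8 months 0 (background 0.612%) and at 26 against 8 months 0 (background 18.4%). At an unadjusted p below 0.05 there was 1 member at 24 months, Myh7 (log2 fold change 1.04, SE 0.46), and there were 0 at 18, 22 and 26 months. DESeq2 called 0 members at these 4 ages. For Myh7 at 24 months, replicates 2 and 4 were far above the others, at 380 and 320 TPM. The median of that age was 108 TPM, beside 105 at 22 months and 82.6 at 8 months. At 28 against 8 months 1 of 5 passed, beside 39.6% of all genes, and at 28 against 22 months 1 of 5, beside 27.7%. The slope over age passed for 1 of 5 (background 39.5%), and the test for a difference between any ages for 0 of 5 (background 35.4%), where the lowest edgeR FDRs were 0.0113 for Myh7 and 0.0151 for Myh1. The count of members called was thus not above what the share of all genes gives.

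All 5 log2 fold changes were above 0 at 24, 26 and 28 months. Their median was 0.24 at 24 months, 0.32 at 26 months and 0.63 at 28 months, beside medians over all genes tested of -0.00743, -0.00095 and 0.00718. These comparisons use the same 8-month mice. With Myh1, Myh2, Myh4 and Myh8 summed into 1 feature, which removes the division of shared reads between them, the log2 fold change at 28 months was 0.30 (SE 0.14, edgeR FDR 0.0587). The sum is mostly Myh4.

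Between neighbouring ages no member passed. At 22 against 18 months 0.00795% of the genes were called. Between 22 and 24, between 24 and 26 and between 26 and 28 months 0 genes of the whole table were called (0% each), although 478, 2202 and 1609 genes had an unadjusted p below 0.05, and DESeq2 called 0, 7 and 0. For the members, the fold changes between neighbouring ages from 18 months on lay between 0.889 and 1.81, both for Myh7.

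**Figure D4:**
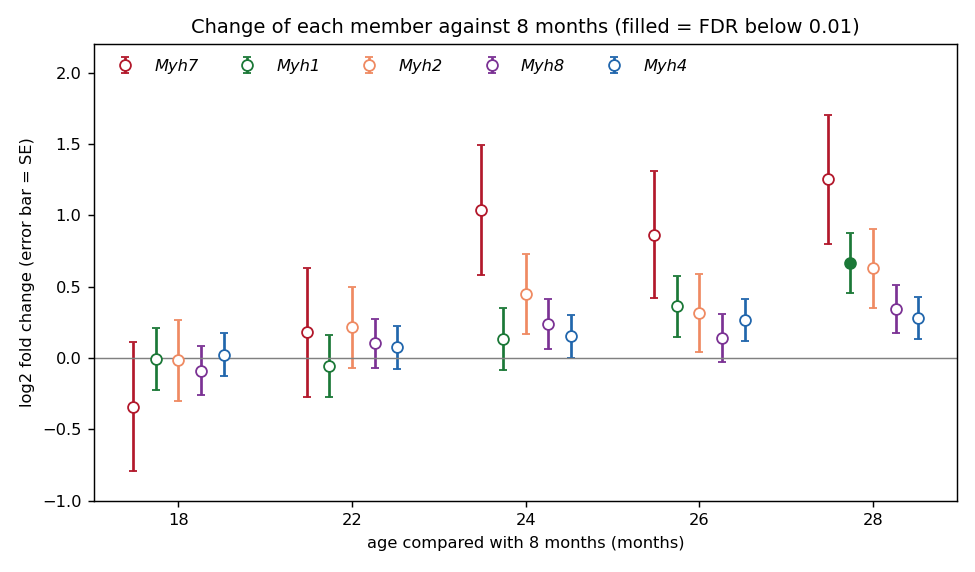
Log2 fold change against 8 months (y axis, error bar = SE) at each older age (x axis) for the 5 members tested, from 1 edgeR fit over 50 mice. The filled point, Myh1 at 28 months with 0.67, passed FDR 0.01, and the open points did not.

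The balance of isoforms was compared within each mouse, since a ratio within a library does not depend on the scaling between libraries. The log2 ratio of Myh1 to Myh4 was -4.10 ± 0.47 (SD, n = 8) at 8 months, -4.20 ± 0.55 (SD, n = 8) at 22 months and -3.64 ± 0.74 (SD, n = 9) at 28 months. At 28 months it ran from -4.82 to -2.52, a range that covered that of 8 months, -4.86 to -3.54, but for its lowest value. The difference between 28 and 8 months was 0.45 (exact permutation test, two-sided, p = 0.161, adjusted p = 0.194 over 6 tests). Between 28 and 22 months it was 0.55 (exact permutation test, p = 0.107, adjusted p = 0.179). The ratio of Myh7 to Myh2 was 0.60 higher at 28 than at 8 months and 0.995 higher than at 22 months, and that of Myh2 to Myh4 0.49 and 0.33 higher. None of the 6 differences passed, the lowest exact permutation p being 0.0919 (adjusted p = 0.179). The ratios with Myh2 rest on its partial transcript, mostly intron, so they are not ratios of full-length mRNA. Myh1 as a share of the 4 members with a counted full coding transcript had a median of 6.01% at 8 months and 6.68% at 28 months. The highest mouse of 28 months, replicate 2, was at 14.4%.

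Mice that were high in 1 of the less abundant members were high in the others, and Myh4 stood outside. Over the 50 mice, after centring each gene within its age, Pearson's r of log2 CPM was 0.94 between Myh2 and Myh8, 0.81 between Myh1 and Myh8, 0.78 between Myh1 and Myh2, and 0.62 to 0.69 between Myh7 and each of these 3 genes. With Myh4 it was -0.06 for Myh1, 0.05 for Myh2, -0.03 for Myh7 and 0.19 for Myh8. These are descriptions over 50 libraries, each pair of values coming from the same library. Of the words in the counted transcript of Myh2, 6.31% occur in any other myosin gene, and Myh7 shares under 1% of its coding words with any other member. Over its full coding sequence, Myh2 shares 20.6% of its words with Myh8 and 29.3% with Myh1. Reads from the uncounted exons of Myh2 could be counted for those genes. The part of shared words and of such reads in the correlations was not tested.

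The genes most like each member, chosen as the 3 with the highest r over the 50 mice, included thick filament and other sarcomere genes. Genes of other kinds, such as Inpp4b, Ablim1, Gtf2i and Sort1, were also among them. For Myh1 they were Mybpc1 (r = 0.89), the slow-type myosin binding protein C, Actn2 (r = 0.85), an alpha-actinin of the Z-disc, and Myom3 (r = 0.83), a myomesin of the M-band. For Myh4 they were Mybpc2 (r = 0.87), the fast-type myosin binding protein C, Gtf2i (r = 0.85) and Sort1 (r = 0.84). For Myh2 they were Inpp4b (r = 0.85), Ablim1 (r = 0.84) and Myom3 (r = 0.81), and for Myh8 Myom3 (r = 0.83), its neighbour Myh13 (r = 0.82) and Inpp4b (r = 0.80).

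For Myh7 they were Myh6 (r = 0.98), slow troponin I Tnni1 (r = 0.94) and slow tropomyosin Tpm3 (r = 0.94). Myh6 was at a median of 2.52 TPM and shares 34.0% of its coding words with Myh7. After centring within age the r of these 15 pairs stayed between 0.76 and 0.98.

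Partner proteins of the slow and fast programmes separated the members. The 12 slow partner genes, such as the slow troponins Tnnt1, Tnni1 and Tnnc1 and the slow myosin light chains Myl2 and Myl3, had a median r within age of 0.85 with Myh7, 0.61 with Myh1, 0.55 with Myh8, 0.49 with Myh2 and -0.22 with Myh4. Only Myl6b, among these genes, had an r under 0.5 with Myh7 over all mice, at 0.16. The 12 fast partner genes had a median r within age of 0.30 with Myh4 and of -0.51 with Myh1, and the highest were Actn3, the fast alpha-actinin, and Atp2a1, the fast calcium pump. The mouse with the lowest Myh7, replicate 3 of 22 months at 4.21 TPM, also had the lowest summed slow partners, 554 TPM, and the mouse with the highest Myh7, replicate 2 of 24 months at 380 TPM, had the highest, 6060 TPM.

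**Figure D5:**
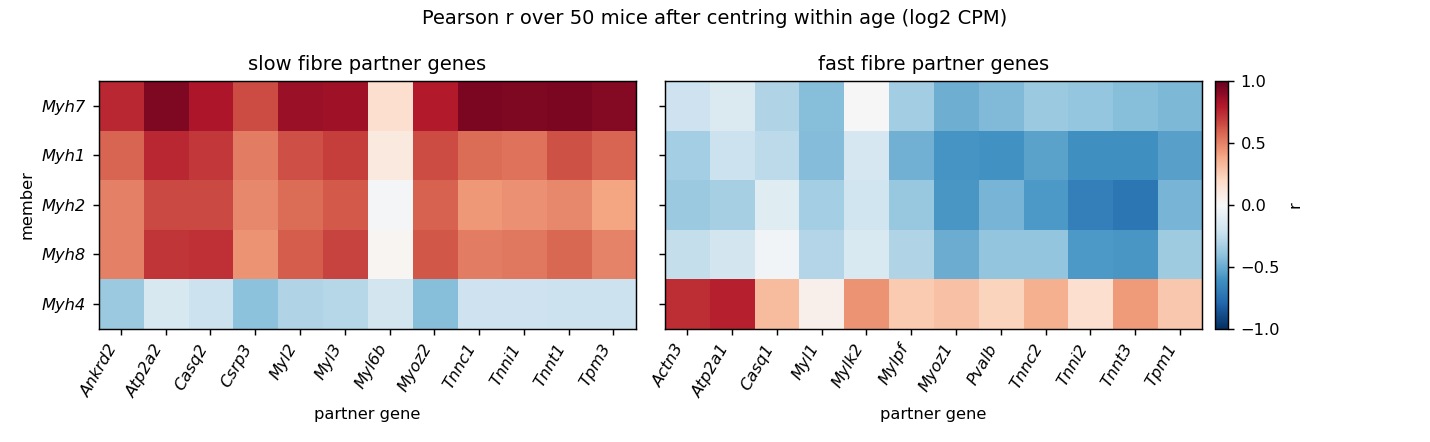
Pearson's r over 50 mice of log2 CPM, centred within age, between each member (y axis) and each of 12 slow and 12 fast partner genes (x axis), coloured from -1 (blue) to 1 (red). The row of Myh7 is the darkest red over the slow genes, with a median of 0.85, and Myh4 is blue there and red over the fast genes.

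With age, the median change was above 0 for slow partner genes and below 0 for fast partner genes, which were called in both directions. Of the 12 slow partner genes, 2 rose at 28 against 8 months and 0 fell, fewer than the 39.6% of all genes called in either direction, with a median log2 fold change of 0.60 beside 0.00718 for all genes. The 2 were Ankrd2, a stretch-responsive ankyrin repeat protein (log2 fold change 1.14, edgeR FDR 0.00716), and Casq2, the slow calsequestrin (0.86, edgeR FDR 0.000549). The slow troponins and light chains had log2 fold changes between 0.18 and 0.71 and did not pass. Of the 12 fast partner genes tested, 6 fell and 2 rose, beside the same 39.6%, with a median of -0.29. Those that fell were Myl1, the fast essential light chain (-0.80), Casq1, the fast calsequestrin (-0.86), the calcium buffer Pvalb (-0.74), Myoz1 (-0.45), Tpm1 (-0.40) and fast troponin C Tnnc2 (-0.36). Actn3 (0.56) and Atp2a1 (0.34) rose. The fast heavy chains Myh1 and Myh4 had values above 0, that of Myh4 without passing (edgeR FDR 0.107), while 6 of the fast partner genes fell. The median r within age of the fast partner genes was -0.51 with Myh1 and 0.30 with Myh4.

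Among 15 genes that build or hold the thick filament, 5 rose and 2 fell at 28 against 8 months, a share near the 39.6% of all genes, with a median of 0.25. The M-band genes Myom1 (0.84, edgeR FDR 2.5e-07) and Myom2 (0.47), Mybph (1.30), titin Ttn (1.27) and the ubiquitin ligase Trim63 (2.10, edgeR FDR 2.21e-05), which marks myosin for breakdown, rose. The myosin methyltransferase Smyd1 (-0.37) and Trim55 (-0.34) fell. The myosin chaperone Unc45b was at -0.13 and did not pass.

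Of 11 tested genes of the developmental and denervation list, 8 rose and 0 fell, beside 39.6% of all genes called, with a median of 1.27. They included the ion pump inhibitor Sln (4.25, edgeR FDR 1.71e-09), Runx1 (2.33), Gadd45a (2.30), myogenin Myog (1.32) and the acetylcholine receptor subunit Chrna1 (1.27). Myh8, which is a developmental gene by its known role, was at 0.34 and did not pass. Its r with these 11 genes had a median of 0.15 over all mice and of -0.04 within age. Within age the medians of the other tested members lay between -0.06 for Myh1 and 0.11 for Myh4, so the low value is not particular to Myh8. Among 17 regulators of fibre type that were tested, 4 rose and 0 fell, a share below the 39.6% of all genes. These were Eya4 (0.74), Ppard (0.55), Nfatc1 (0.45) and Sox6 (0.45). Tbx15 (0.22) and Prox1 (0.35) did not pass. In bulk muscle, more fibres of a type and more RNA per fibre of that type cannot be told apart.

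Some markers of muscle and of other cell types also moved with age, beside the 39.6% of all genes called at 28 against 8 months. Of the 8 skeletal muscle identity genes 5 rose between 8 and 28 months and 0 fell, with a median log2 fold change of 0.50. Between 22 and 28 months 4 rose and 0 fell, beside 27.7% of all genes called. Titin Ttn (1.27), nebulin Neb (1.18), Actn2 (0.90), Myf6 (0.66) and desmin Des (0.34) rose against 8 months, while Ckm (-0.02), Acta1 (-0.08) and myoglobin Mb (-0.40) did not pass. Between 8 and 28 months 3 of 6 macrophage markers rose, and 3 of 5 markers each of fibroblasts, of smooth muscle and pericytes and of adipocytes fell. In the same comparison 1 of 5 endothelial markers fell and 1 of 5 erythroid markers rose. Schwann cell markers passed in 0 of 5 cases and satellite cell markers in 0 of 3 tested. The summed macrophage markers lay between 50.2 and 88.6 TPM at 8 months and between 76.7 and 197 TPM at 28 months, and the fibroblast markers between 682 and 986 and between 567.8 and 785 TPM. No marker in any list was at 0 in every mouse. Their part in the changes of the members was not tested.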

How the data were processed

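Gastrocnemius RNA was poly(A)-selected and sequenced as stranded read pairs. The authors trimmed reads with Cutadapt 1.9.1 and assigned them with kallisto 0.43.1 to Ensembl transcripts of GRCm38 with support level 1 to 3. The paper describes these as protein-coding transcripts. The lengths found here for Myh2 and Myh7b are those of models not annotated as protein-coding. A read that matched several transcripts was divided evenly among them, so reads shared by close paralogs are split. The counts, as deposited by the authors, are whole numbers summed per gene. The TPM values, as deposited by the authors, are per transcript length and library size.

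Groups came from the sample labels. The count model was the quasi-likelihood test of edgeR 4.0.16 (R 4.3.3) with TMM scaling, over 6 age groups or with age as a number (at least 1 CPM in at least 8 mice, 12586 genes, Benjamini-Hochberg adjustment over all of them, FDR below 0.01). The SE is the log2 fold change divided by the root of the F statistic. The fit was tested on simulated data. Alternatives were DESeq2 1.42.0, limma 3.58.1 on log2(TPM + 1), other scaling, no filter, other sets of mice and a replicate block. Ratios used exact permutation tests in SciPy 1.17.1. Correlations used TMM-scaled log2 CPM with a prior count of 2. Sequences came from GENCODE M21 and RefSeq and were aligned with Biopython 1.88. The members and gene lists were chosen with earlier results of these data known. Named genes were the members, genes of these lists and the 3 genes most like each member. Each p-value measures the spread between mice, and counts cover counting error only. No per-sample column was left unused.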

Additional observations from a re-analysis of the deposited data

Results flagged for a closer look

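Among 54 sets of 8 or 9 mice of 1 age, counted over the 6 members and 3 ratios, 3 held a mouse whose gap to the next was too large a part of the range (Dixon's test at 95%), where chance flags about 1 in 20. Myh1 was at 2176 TPM in replicate 4 of 26 months, while the other 8 mice lay between 1024 and 1582 TPM. Myh4 was at 27940.1 TPM in replicate 1 of 22 months, while the others lay between 14051 and 19465 TPM. Myh7b was at 5.74 TPM in replicate 2 of 24 months, the mouse that also had the highest Myh7, while the others lay between 0.613 and 1.596 TPM.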

How the results depend on the processing

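The call of Myh1 at 28 against 8 months held with DESeq2, limma and robust dispersion and was lost with upper-quartile factors (log2 fold change 0.61), without the filter (0.67), with only the 2 ages in the fit (0.66) and with a replicate block (0.68), at edgeR FDRs of 0.01 to 0.0144. Members called there were 0 with upper-quartile factors, without the filter and with the replicate block, and 2 at FDR 0.05, Myh1 and Myh7. With only the 2 ages in the fit the 1 member called was Myh7 (edgeR FDR 0.00832). At 28 against 22 months Myh1 missed with upper-quartile factors (0.65) and the replicate block (0.70), leaving 0 members. The slope of Myh7 was 0.14 per month and missed among mice of 22 to 28 months, where that of Myh1 passed (0.12, edgeR FDR 0.00163). The cause was not tested. Signs turned only near 0: Myh1 at 18 against 8 months with the block (0.0305) and without the filter (0.00048), Myh2 there with the block (0.023) and Myh7 at 22 against 8 months in limma (-0.11).

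Whether replicate numbers pair mice could not be settled. Of 121 same-numbered pairs of different ages, 47 had deviations correlated above 0.1, and this share was not counted among the other pairs. The median r was 0.05 for same-numbered pairs and -0.01 for the 920 others. Leaving out 1 mouse at a time, added after seeing the data for 28 against 22 months and the slope, members called ranged from 0 to 1 at 28 against 8 months, 0 to 1 at 28 against 22 months and 0 to 2 for the slope. The log2 fold change of Myh1 was 0.58 to 0.75 and 0.63 to 0.81, and the slope of Myh7 0.0595 to 0.0733. The ratio differences were 0.31 to 0.60 and 0.41 to 0.70 for Myh1 to Myh4, 0.32 to 0.58 and 0.17 to 0.50 for Myh2 to Myh4, and 0.39 to 0.79 and 0.59 to 1.20 for Myh7 to Myh2, and none passed, also not with counts or 1 TPM added. Levels of Myh2 and Myh7b rest on partial transcripts, and reads shared by the chromosome 11 genes limit any comparison among them.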

Other observations

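Myhas (chr11:67211256-67237573, minus strand, GRCm38), a gene that lies across the end of Myh1 on the opposite strand and reaches to Myh4, was looked up after the values of its neighbours were seen. Its median was 85.3 TPM at 8 months and 38.6 TPM at 28 months, with ranges of 72.9 to 90.2 and 13.5 to 79.3 TPM, which overlapped. It fell by 0.98 on the log2 scale between 8 and 28 months (SE 0.22, edgeR FDR 0.000265) and by 0.81 between 22 and 28 months (edgeR FDR 0.00333). The reads were counted by strand, and Myh1 had log2 fold changes above 0 in the same comparisons. Myh13, the next gene after Myh8, had medians of 94.1 and 84.8 TPM at the same ages (log2 fold change -0.07, edgeR FDR 0.836). Like Myh2 it was counted over a partial transcript, of 668 bases, so these are not levels of full-length mRNA. Its highest value, 195 TPM, was in replicate 3 of 8 months.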
